A study of Rattus norvegicus with 14 samples.

Results

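Inflammatory chemokines and cytokines were examined in the skin of male CD hairless rats after 94 GHz millimetre wave exposure. The set held 10 genes, Cxcl1, Cxcl2, Ccl2, Ccl7, Ccl3, Ccl4, Ccl5, Il1b, Il6 and Tnf, of 15154 genes with a RefSeq symbol on the array. Members were taken by matching the RefSeq accession of each array probe, without its version, to the gene symbol, a match that uses no measured value. Each gene had 1 probe. Of the 10 genes, 8 were well above background on at least 6 of the 14 arrays and were kept with the 18609 genes measured; Ccl4 and Il6 were not.

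The skin came from 14 animals, with 1 one-colour array each. Exposed animals (n = 6) received 94 GHz for 3 h per day on 3 days per week over 5.5 months, and sham animals (n = 8) were sham-exposed on that schedule. All were housed by twos, and their age and the place of the biopsy on the body are not given in the sources used here. Which animals shared a cage is also not given, so p-values treat animals as independent. Keratinocyte markers were bright in all animals, and the suprabasal keratin Krt1 averaged a log2 signal of 7.40 ± 0.20 in exposed animals (SD, n = 6) against 7.54 ± 0.23 in sham animals (SD, n = 8). Levels are log2 signals relative to the 75th percentile of each array, so 0 is the level of that percentile. They compare animals for 1 probe and do not rank genes against each other. The 75th percentile of array signal ran from 804.5 scanner units in sham animal 6 to 1967, and each array correlated at 0.984 to 0.996 with the median array, sham animal 6 being the lowest. The arrays lay on 4 slides, of which slide 1 carried only sham arrays (2) and slide 2 only exposed arrays (2). Slide 3 carried 3 exposed with 3 sham arrays, and slide 4 carried 1 exposed with 3 sham arrays. A fit blocked on slide therefore takes its difference from slides 3 and 4 only.

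Chemokines are small secreted proteins that guide leukocytes through receptors on those cells, and the cytokines Il1b, Tnf and Il6 start and spread inflammation. In skin they are made by keratinocytes, fibroblasts, endothelium, mast cells and resident and incoming leukocytes. Cxcl1 and Cxcl2 act through Cxcr2 on neutrophils, Ccl2 and Ccl7 through Ccr2 on monocytes, and Ccl3 and Ccl5 through Ccr1, among others, on monocytes and lymphocytes. The transcription factor NF-kappaB, held back by its inhibitor Nfkbia until a signal arrives, induces many of these genes. In whole-skin RNA, fewer cells of a type and less RNA per cell cannot be told apart.

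RefSeq promoter sequences (build GRCr8) were matched for 6 of the 10 genes: Cxcl1, Cxcl2, Ccl7, Il1b, Il6 and Tnf. The 150 bases before the start site are printed below for Cxcl1, Cxcl2 and Ccl7, because each belongs to a gene pair that varied together between animals. Capitals mark every match, on either strand, to the NF-kappaB pattern GGGNNNTTCC, where N is any base; overlapping matches run together.
Cxcl1 (chr14:17479322-17479471, minus strand): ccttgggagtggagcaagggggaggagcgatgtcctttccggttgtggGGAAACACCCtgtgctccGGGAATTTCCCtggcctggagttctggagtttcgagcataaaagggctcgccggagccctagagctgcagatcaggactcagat
Cxcl2 (chr14:17467256-17467405, minus strand): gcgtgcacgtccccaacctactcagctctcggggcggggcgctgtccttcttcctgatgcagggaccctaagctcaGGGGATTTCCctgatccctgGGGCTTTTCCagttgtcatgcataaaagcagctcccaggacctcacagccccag
Ccl7 (chr10:67513945-67514094, plus strand): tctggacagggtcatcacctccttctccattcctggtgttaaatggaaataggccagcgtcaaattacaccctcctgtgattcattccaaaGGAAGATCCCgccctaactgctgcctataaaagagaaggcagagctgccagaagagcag
Within these bases Cxcl1 held 3 matches, at 102, 84 and 83 bases before the start, the last pair overlapping on opposite strands. Cxcl2 held 2, at 74 and 54 bases before the start, and Ccl7 held 1, at 59. Over the 250 bases before the start, 4 of the 6 matched promoters held the pattern (Cxcl1, Cxcl2, Ccl7 and Il6), beside 4.53% of 27457 promoters of that length. A match is a description of the letters and not of binding.

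Among the 8 measured genes, 0 passed the threshold between exposed and sham skin. Those with a higher mean in exposed skin were Cxcl1, Cxcl2, Ccl2, Ccl7 and Tnf, and those with a lower mean were Ccl3, Ccl5 and Il1b. The share of all measured genes past an adjusted p under 0.05 (limma with Benjamini-Hochberg adjustment) was 0%, and every member had an adjusted p of 0.9996. At an unadjusted p under 0.05 there were 0 of 8 members and 636 of 18609 genes (3.42%), the latter 1549 without sham animal 6 and 990 without exposed animal 3. A higher mean in exposed skin was found for 5 of 8 members and for 43% of all measured genes. The median difference was 0.18 over the 8 members and -0.02 over all genes. In every member the exposed and sham values overlapped, whereas 0.0322% of all genes had groups without overlap.

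**Figure D1:**
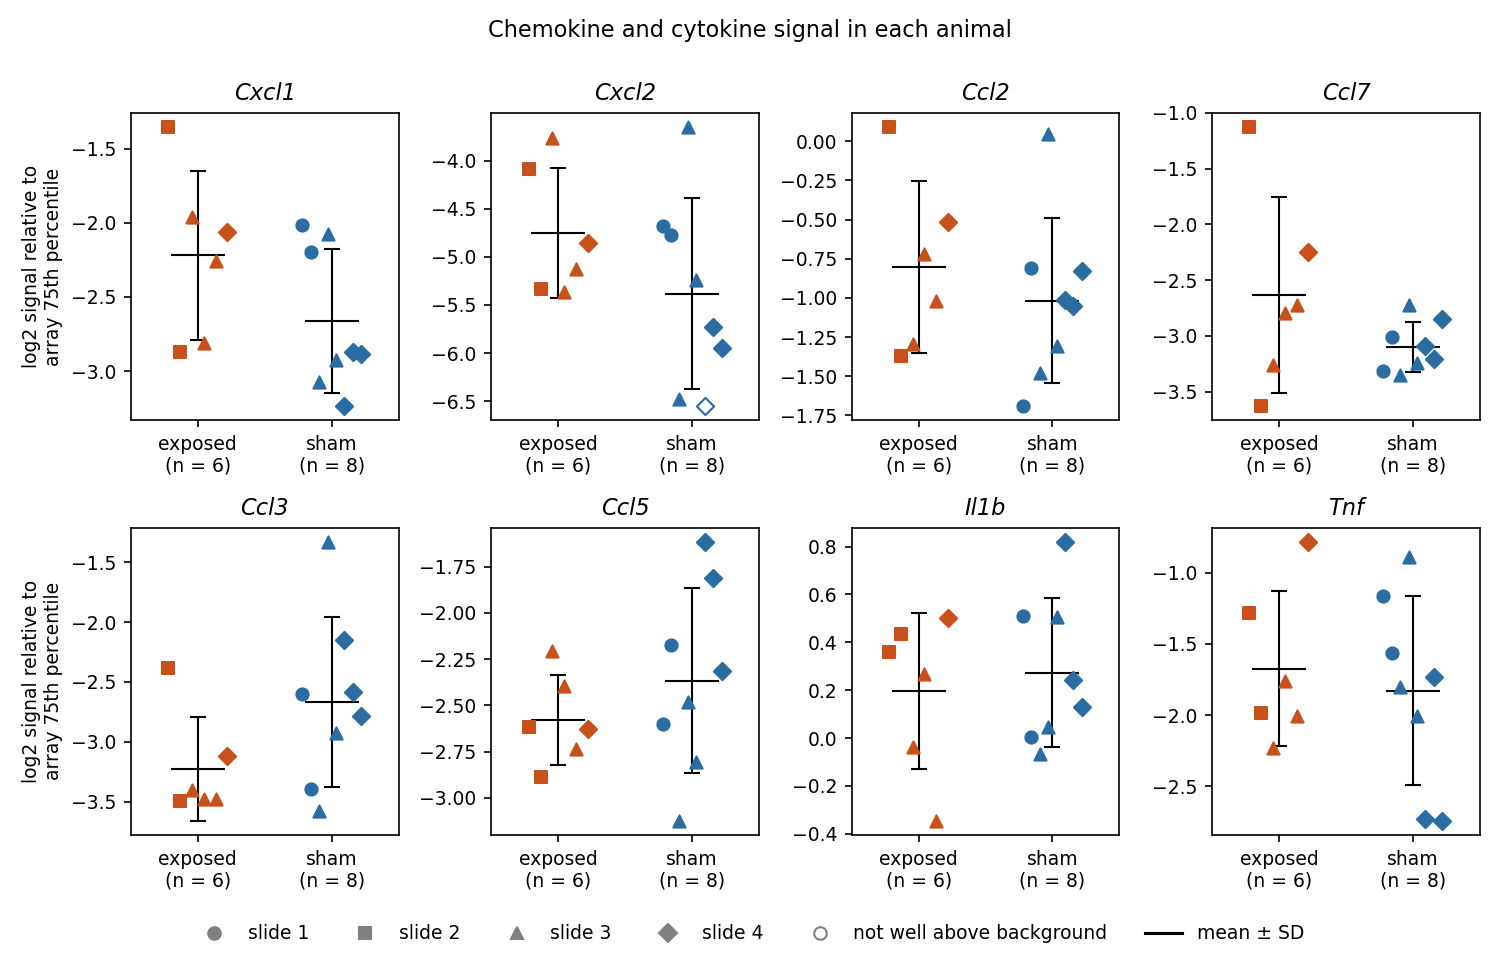
Log2 signal relative to the array's 75th percentile (vertical axis) of the 8 measured genes in each exposed (n = 6) and sham (n = 8) animal, with marker shape for the slide, an open marker for a spot not well above background, and bars for mean ± SD. The groups overlap in all 8 genes; exposed animal 1 lies highest for Cxcl1, Ccl2 and Ccl7, and sham animal 4 for Cxcl2 and Ccl3.

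The neutrophil-attracting chemokines Cxcl1 and Cxcl2 had higher means in exposed skin, without passing the test. Cxcl1 ran from -2.88 through a median of -2.16 to -1.35 in exposed animals and from -3.24 through -2.88 to -2.01 in sham animals. All 6 exposed values lay above the sham median, exposed animal 2 by less than the digits given here, and the groups overlapped over most of their range. It averaged -2.22 ± 0.57 in exposed (SD, n = 6) against -2.66 ± 0.49 in sham animals (SD, n = 8), differing by 0.44 ± 0.26 (SE; 95% interval -0.12 to 1.00; limma adjusted p = 0.9996). Cxcl2 ran from -5.36 through -4.99 to -3.76 in exposed and from -6.55 through -5.49 to -3.65 in sham animals. The highest value of all belonged to sham animal 4 and the lowest to sham animal 6, the 1 array of 14 on which Cxcl2 was not well above background. The Cxcl2 difference was 0.63 ± 0.43 (SE; 95% interval -0.30 to 1.56; limma adjusted p = 0.9996), a fold of 1.54 with an interval from 0.811 to 2.94. With normexp background correction it was 0.18; the cause was not tested. Within slide 4, which holds only exposed animal 6 against 3 sham animals, the differences were 0.94 for Cxcl1 and 1.22 for Cxcl2, and within slide 3 they were 0.35 and 0.37. Leaving out exposed animal 1 gave 0.27 for Cxcl1.

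The monocyte-attracting chemokines Ccl2 and Ccl7 differed by less than their spread. Ccl2 ran from -1.37 through -0.87 to 0.09 in exposed and from -1.69 through -1.03 to 0.05 in sham animals, and 1 animal of each group, exposed animal 1 and sham animal 4, stood well above the rest. The difference was 0.21 ± 0.27 (SE; 95% interval -0.36 to 0.79; limma adjusted p = 0.9996), 0.03 without exposed animal 1, 0.37 without sham animal 4, 0.09 when blocked on slide and 0.45 within slide 4. Within slide 3 the Ccl2 difference took the other sign, at -0.10. Ccl7 ran from -3.63 through -2.76 to -1.12 in exposed and from -3.35 through -3.15 to -2.72 in sham animals. Exposed animals lay on both sides of the sham range, with exposed animal 2 below it and exposed animals 1 and 6 above it. The SD of Ccl7 was 0.88 among exposed (n = 6) and 0.22 among sham animals (n = 8); the difference between these spreads was not tested. The difference in Ccl7 means was 0.47 ± 0.30 (SE; 95% interval -0.17 to 1.10; limma adjusted p = 0.9996), and 0.16 without exposed animal 1. It was 0.18 within slide 3 and 0.80 within slide 4.

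Ccl3, a chemokine for monocytes and lymphocytes, had the smallest p of the members. It ran from -3.50 through -3.44 to -2.38 in exposed and from -3.58 through -2.69 to -1.33 in sham animals. Of 6 exposed animals, 5 lay below the sham median, and exposed animal 1 lay above it. It averaged -3.23 ± 0.44 in exposed (SD, n = 6) against -2.67 ± 0.71 in sham animals (SD, n = 8), differing by -0.56 ± 0.30 (SE; 95% interval -1.21 to 0.09; limma adjusted p = 0.9996). Sham animal 4 was the brightest, and without it the Ccl3 difference was -0.37. Slide 3 by itself gave -0.84 and slide 4 by itself -0.62. Blocking on slide, which combines those slides and leaves out exposed animal 1, gave -0.77. Ccl5, made largely by activated T cells and natural killer cells, ran from -2.89 through -2.62 to -2.21 in exposed and from -3.13 through -2.40 to -1.61 in sham animals. The exposed values all lay inside the sham range. Ccl5 differed by -0.21 ± 0.21 (SE; 95% interval -0.66 to 0.23; limma adjusted p = 0.9996), by -0.10 without sham animal 6 and by -0.32 without sham animal 3. The sign was not the same on slides 3 and 4. The Ccl5 difference was 0.36 among the arrays of slide 3 (95% interval -0.15 to 0.87). It was -0.71 among those of slide 4, where exposed animal 6 is the only exposed animal, so slide and animal cannot be told apart. Blocking on slide gave 0.0014.

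Ccl4, a close relative of Ccl3, exceeded background in 1 exposed and 4 sham animals, with values from -7.27 to -5.55, so no fold is given. Il6 was not well above background on any of the 14 arrays although its probe had 10 spots, with values from -8.63 to -7.18. For Il6 both groups therefore have only a bound, and for Ccl4 9 of the 14 animals do.

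Il1b, the interleukin released when caspase-1 is activated, was measured with the smallest spread of the members. It ran from -0.35 through 0.31 to 0.50 in exposed and from -0.07 through 0.19 to 0.82 in sham animals. Exposed animal 5 was the lowest and sham animal 6 the highest. The difference was -0.08 ± 0.16 (SE; 95% interval -0.42 to 0.27; limma adjusted p = 0.9996), so the interval ran from a fold of 0.745 to 1.21. It lay at 0.03 without exposed animal 5, at 0.00061 without sham animal 6, at -0.20 within slide 3 and at 0.10 within slide 4. Tnf, which acts through Tnfrsf1a and Tnfrsf1b, ran from -2.23 through -1.87 to -0.78 in exposed and from -2.75 through -1.77 to -0.89 in sham animals. Of the 6 exposed animals 3 lay above and 3 below the sham median. The Tnf difference was 0.15 ± 0.31 (SE; 95% interval -0.50 to 0.81; limma adjusted p = 0.9996). It was -0.43 within slide 3, 1.62 within slide 4, 0.25 with slide as a block, 0.03 without sham animal 6, 0.02 without sham animal 8 and -0.02 without exposed animal 6.

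**Figure D2:**
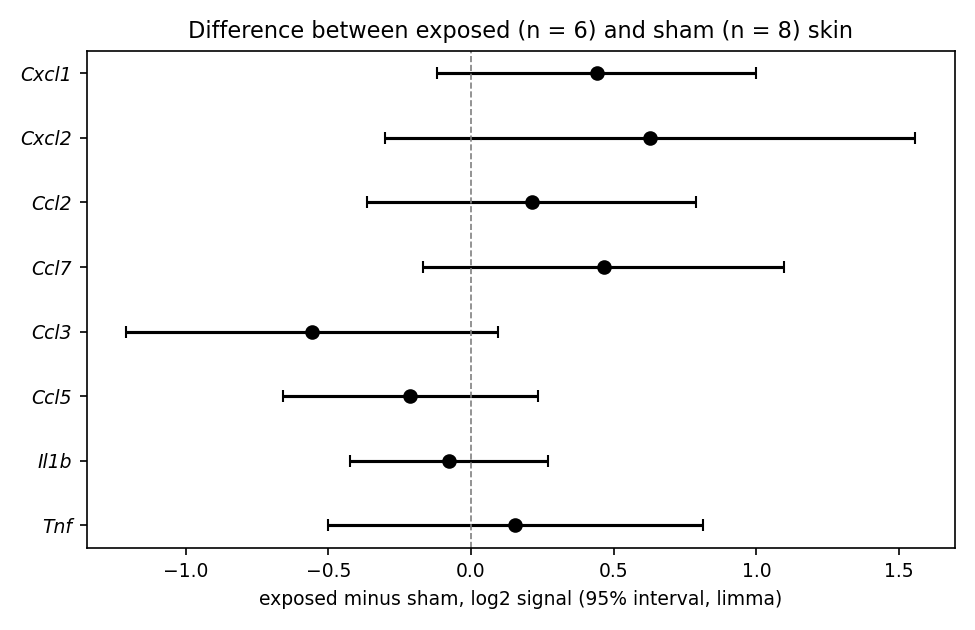
Difference in log2 signal, exposed minus sham (horizontal axis, points), with 95% limma intervals (bars) for the 8 measured genes over 6 exposed and 8 sham animals. Every interval crosses 0; the widest belongs to Cxcl2 (-0.30 to 1.56) and the narrowest to Il1b (-0.42 to 0.27).

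The SD within groups ran from 0.32 for Il1b through 0.41 for Ccl5, 0.52 for Cxcl1, 0.54 for Ccl2, 0.59 for Ccl7, 0.61 for Ccl3 and 0.62 for Tnf to 0.88 for Cxcl2, and the median over all genes was 0.24. All 8 members lay above that median. Their SDs stood at the 66.5th (Il1b) to 97.4th (Cxcl2) percentile of all genes, and at the 84.9th to 95.7th percentile of genes within 0.5 log2 units of the same brightness. The SD between replicate spots of 1 array covers hybridisation and scanning only, not RNA extraction, labelling or the array. Its median over arrays, from 10 spots, was 0.090 for Cxcl1, 0.076 for Ccl2, 0.105 for Ccl3 and 0.063 for Il1b. From the dimmest to the brightest of the 14 animals, Il1b spanned 2.25-fold, Ccl5 2.85-fold, Ccl2 3.45-fold, Cxcl1 3.70-fold, Tnf 3.90-fold, Ccl3 4.76-fold, Ccl7 5.68-fold and Cxcl2 7.51-fold.

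Some animals were high or low for many of the genes. Exposed animal 1 was among the 3 brightest of 14 for 5 of the 8 genes, and so was sham animal 4. Sham animal 3 was among the 3 dimmest for 7 of 8. Averaged over the 8 genes, exposed animal 1 lay 0.737 and sham animal 4 lay 0.656 log2 units above the mean of all animals, and sham animal 3 lay at -0.582. These animals are of both groups. Sham animal 6, whose array signal was the lowest, was among the 3 brightest for 3 genes (Ccl3, Ccl5 and Il1b) and among the 3 dimmest for 3 others (Cxcl1, Cxcl2 and Tnf).

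**Figure D3:**
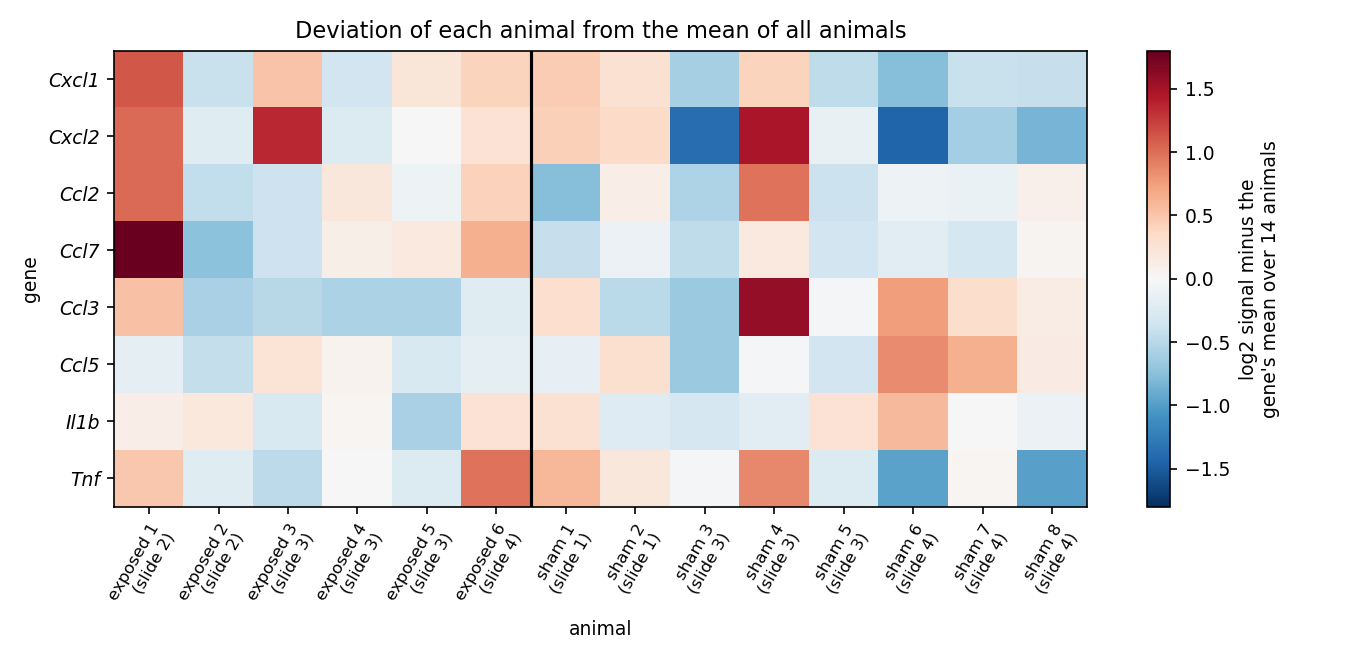
Heat map of log2 signal minus the gene's mean over all 14 animals (colour), with the 8 measured genes in rows and animals in columns, exposed on the left of the line and sham on the right. Exposed animal 1 and sham animal 4 are above the mean for most genes and sham animal 3 is below it for all 8.

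Some members also varied together, after each group's mean was removed. Of 28 gene pairs, 22 had a Pearson correlation above 0 over the 14 animals, with a median of 0.32 and a range from -0.314 to 0.842. The same share over pairs of all genes was not computed, so these counts do not set the members apart. In the permutation test with 100000 resamples, 2 pairs passed with Benjamini-Hochberg adjustment over the 28, and both are pairs of neighbouring genes with 0 other protein-coding genes between them in the RefSeq table. Cxcl1 and Cxcl2, on chromosome 14, correlated at r = 0.842 (permutation p = 0.00015, adjusted p = 0.00252; Spearman rho = 0.859, permutation p = 0.00015, adjusted p = 0.0021). The correlation was 0.871 without the 2 animals farthest from the median of Cxcl1 (exposed animal 1 and sham animal 1), 0.819 without sham animal 6, 0.846 with slide means also removed and 0.909 within slide 3. Ccl2 and Ccl7, on chromosome 10, correlated at r = 0.817 (permutation p = 0.00018, adjusted p = 0.00252; Spearman rho = 0.908, permutation p = 4e-05, adjusted p = 0.00112). It was 0.824 without the 2 farthest animals (sham animal 4 and exposed animal 1), 0.817 without sham animal 6, 0.82 with slide means removed and 0.88 within slide 3. Slide 4 has 4 arrays and the other slides 2 each, too few for a value. The test permuted the 14 values freely across both groups, although removing group means ties them together. Its p-values are therefore too small, by an amount that was not tested. For Ccl7 it also mixed groups of unlike SD (0.88 in exposed, 0.22 in sham animals). The probe sequences were not used here, and cross-hybridisation between these related genes was not tested.

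**Figure D4:**
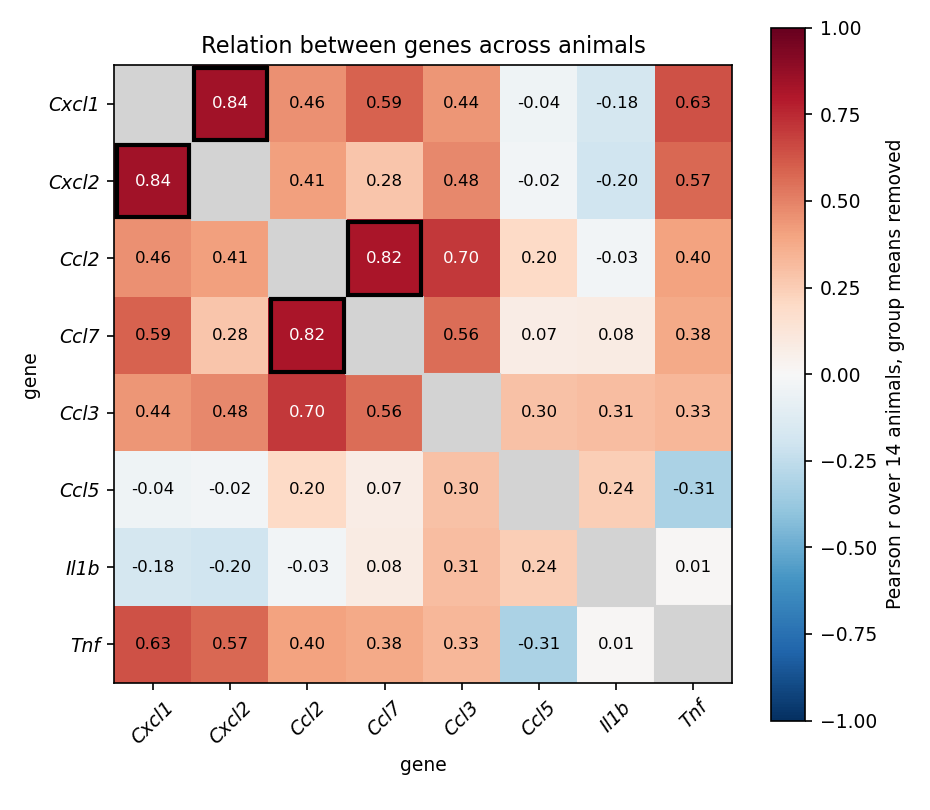
Pearson r (colour and printed value) between each pair of the 8 measured genes over 14 animals after removal of group means; black frames mark adjusted permutation p under 0.05. The framed pairs are Cxcl1 with Cxcl2 (0.84) and Ccl2 with Ccl7 (0.82), while Il1b lies between -0.20 and 0.079 with Cxcl1, Cxcl2 and Ccl7.

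With slide means removed 7 pairs passed, all among Cxcl1, Cxcl2, Ccl2, Ccl7 and Ccl3. The permutation there again treated the 14 values as freely exchangeable, although removing slide means as well ties them further. Its p-values are therefore also too small, and the count of 7 cannot be set beside the 2. With only group means removed there were 5 without sham animal 1 and 6 without exposed animal 3. Over all 14 animals the other pairs did not pass. Ccl2 and Ccl3 correlated at r = 0.704 (permutation p = 0.00542, adjusted p = 0.0506; rho = 0.521, permutation p = 0.0584), and at 0.167 without sham animal 4 and exposed animal 1, so that relation rests on those animals. Tnf correlated with Cxcl1 at 0.634 (permutation p = 0.0157, adjusted p = 0.109; rho = 0.596, permutation p = 0.0272) and at 0.573 without the 2 farthest animals. With slide means removed that value was 0.559. Il1b had correlations from -0.20 to 0.31 with the other 7 genes, and Ccl5 from -0.314 to 0.296. Neither Ccl5 nor Il1b was in a pair that passed.

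Markers of other cells in the biopsy were set against the members in the same way, so these permutation p-values are likewise too small. There were 88 relations, of 8 genes with 10 marker lists and the array's 75th percentile. Of these, 1 passed with adjustment over the 88, the relation of Il1b with the endothelial markers (9 of 10 listed genes measured, among them Pecam1, Kdr and Cdh5). Il1b was lower in animals with a higher mean log2 level of these markers (r = -0.835, permutation p = 9e-05, adjusted p = 0.00792, and rho = -0.877, permutation p = 0.00013). It was -0.779 without the 2 animals farthest from the median, -0.811 without sham animal 6, -0.847 with slide means removed and -0.891 within the 6 animals of slide 3. Each marker counted equally in that mean. In sham skin (n = 8) the markers Tie1 (SD 0.80) and Eng (0.78) varied more than Pecam1 (0.13) and Kdr (0.17). In exposed skin (n = 6) these SDs were 0.35, 0.38, 0.56 and 0.44. Relations of Il1b with single markers were not tested. The summed endothelial level, in which bright markers weigh most, was not the measure correlated. It ran from 4.46 to 9.46 in exposed and from 4.93 to 7.04 in sham skin, on a linear scale where 1 is the 75th percentile of the array. The part of endothelial content in the Il1b values was not tested.

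**Figure D5:**
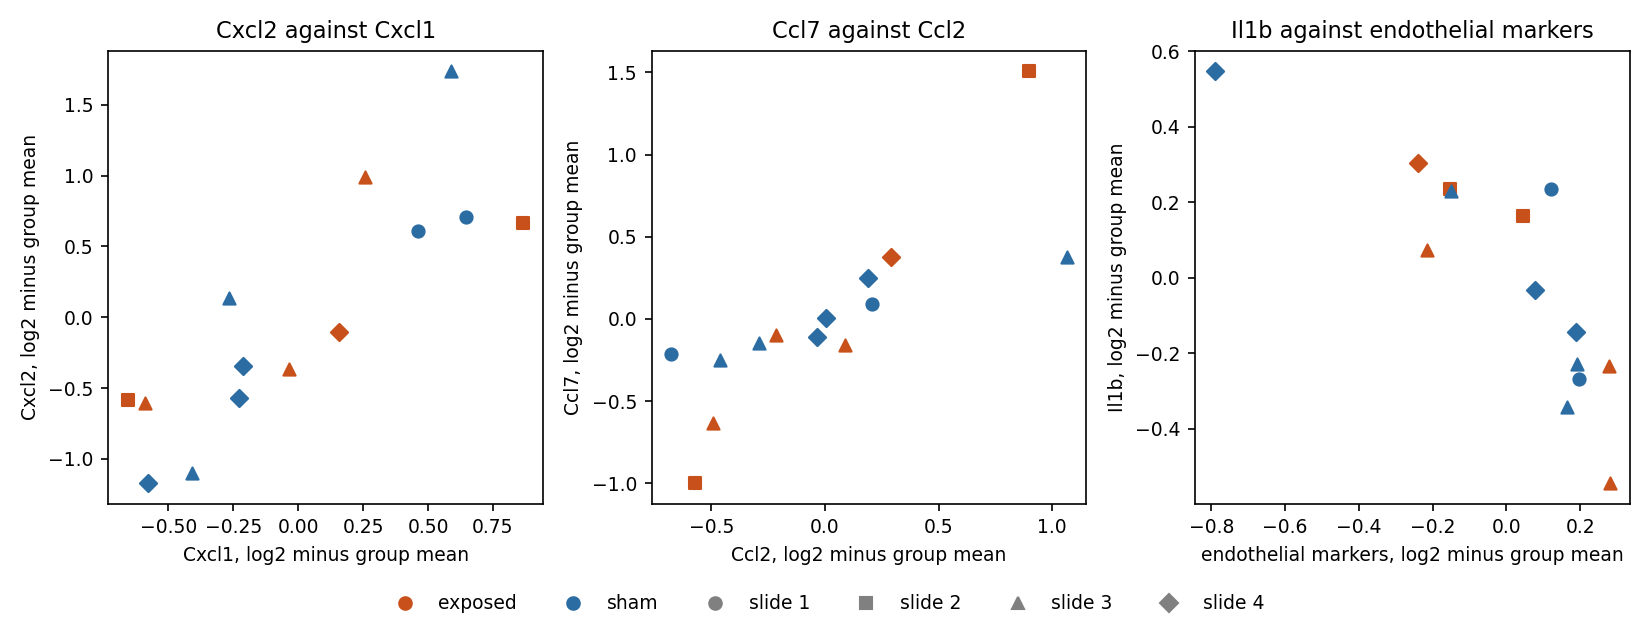
Each point is 1 animal, coloured by group and shaped by slide, as log2 signal minus its group mean: Cxcl2 against Cxcl1, Ccl7 against Ccl2, and Il1b against the mean of 9 endothelial markers. The first 2 panels slope upward (r = 0.842 and 0.817) and the last slopes downward (r = -0.835), with sham animal 6 at its upper left.

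Of the 88 relations, 10 had an unadjusted p under 0.05, the other 9 without passing adjustment: 6 with leukocyte markers and 3 with adipocyte or hair follicle markers. Ccl7 correlated at r = 0.733 with macrophage and dendritic cell markers (permutation p = 0.00414, adjusted p = 0.139; rho = 0.631, permutation p = 0.0185; 0.62 without the 2 farthest animals; 0.741 with slide means removed; 0.503 within slide 3). Ccl2 correlated at 0.704 with T cell and natural killer cell markers (permutation p = 0.00474, adjusted p = 0.139; rho = 0.71, permutation p = 0.00588; 0.523 without the 2 farthest animals; 0.743 with slide means removed; 0.749 within slide 3). Cxcl1 correlated at 0.608 with neutrophil markers (permutation p = 0.0207, adjusted p = 0.328; rho = 0.512, permutation p = 0.0641) but at 0.302 without the 2 farthest animals, at 0.508 with slide means removed and at 0.738 within slide 3. Ccl3 correlated with the same neutrophil markers at 0.585 (permutation p = 0.0275, adjusted p = 0.328; rho = 0.495, permutation p = 0.0741) at 0.373 without those animals, at 0.771 with slide means removed and at 0.895 within slide 3. Cxcl2 correlated with the neutrophil markers at 0.553 (permutation p = 0.0406, adjusted p = 0.358; rho = 0.363, permutation p = 0.204) and at -0.0097 without those animals, so that relation rests on them. With slide means removed it was 0.531, and within slide 3 it was 0.635. Ccl7 correlated at 0.636 with the T cell and natural killer cell markers (permutation p = 0.0123, adjusted p = 0.27; rho = 0.587, permutation p = 0.0304), at 0.345 without the 2 farthest animals and at 0.636 within slide 3. Ccl3 correlated at -0.613 with adipocyte markers (permutation p = 0.0232, adjusted p = 0.328; rho = -0.543, permutation p = 0.0474), at -0.521 without the 2 farthest animals and at -0.787 within slide 3. With hair follicle keratins Ccl3 correlated at -0.574 (permutation p = 0.0298, adjusted p = 0.328; rho = -0.442, permutation p = 0.114), at -0.31 without the 2 farthest animals and at -0.477 within slide 3. Il1b correlated at -0.559 with adipocyte markers (permutation p = 0.0359, adjusted p = 0.351; rho = -0.473, permutation p = 0.0909), but at -0.227 without the 2 farthest animals, at -0.293 without sham animal 6 and at 0.182 within slide 3. The neutrophil list rests on 7 of 13 genes, and its granule protease Elane and collagenase Mmp8 were not well above background on enough arrays. In the mean correlated here S100a9 varied most, with an SD of 0.98 in exposed (n = 6) and 1.22 in sham animals (n = 8). S100a8, averaging 3.989 in exposed and 3.935 in sham animals, weighs most in the summed level of the list. That summed level ran from 15.0 to 30.2 in exposed and from 14.7 to 37.1 in sham skin. That of the macrophage list, with 15 of 16 genes measured, ran from 48.1 to 96.0 and from 58.8 to 93.8, and that of the T cell list, with 17 of 18, from 1.82 to 2.49 and from 1.66 to 3.17. For the array's 75th percentile the correlation ran from -0.435 (Ccl5) to 0.394 (Tnf), and without sham animal 6 these were -0.0236 and 0.0949. Without that animal the correlation with array signal was -0.506 for Cxcl2 (0.0053 with it), -0.369 for Ccl3 and -0.306 for Cxcl1, and within slide 3 it was -0.714 for Cxcl2, -0.335 for Ccl3, -0.606 for Cxcl1 and -0.759 for Ccl5. The part of cell content and of array signal in the members' values was not tested.

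The genes whose values across animals were most like each member, of 11308 searched, are given as a description, since the highest of so many correlations is high by selection. Ccl5 was nearest to Cd247, the T cell receptor zeta chain (r = 0.909 over 14 animals). Next came Gzmm, a granzyme of killer lymphocytes (0.867), and Akr1c1 (0.849). Ccl7 was nearest to the receptor phosphatase Ptprj (0.927), to the MHC class II gene RT1-Bb (0.894) and to Cd74, the invariant chain of MHC class II (0.887). Ccl2 was nearest to Itgb2, the leukocyte integrin beta chain (0.844), then Ptprj (0.827) and Rac2, a GTPase of blood cells (0.822). Ccl3 was nearest to Ccl9, another chemokine of the same family (0.912), then Son (0.903) and the kinase gene Matk (0.894). Cxcl1 was nearest to the interferon signalling factor Irf9 (0.895), Oma1 (0.879) and Fgr, a kinase of myeloid cells (0.867), and Cxcl2 to Celf1 (0.914), Nek4 (0.895) and Rdh11 (0.882). Il1b was nearest to Srp9 (0.901), Cptp (0.893) and the immediate early gene Ier3 (0.889). Tnf was nearest to the mitochondrial carrier gene Slc25a32 (0.951), then Dcaf17 (0.862) and Kank1 (0.86). For the mean of the 8 members the leading genes were Fgr (0.961), Rassf4 (0.946), the leukocyte actin-bundling gene Lcp1 (0.918), Crem (0.915) and Ncf1, a subunit of the phagocyte oxidase (0.891), followed by Atp6v0d2, Srsf10, Oma1, Tfb2m and Hk3 at 0.864 to 0.885. These animals share slides and array depth. With slide means also removed, the same correlations were 0.941 for Ccl5 with Cd247, 0.937 for Ccl7 with Ptprj, 0.922 for Ccl3 with Ccl9 and 0.96 for the mean with Fgr. Without the 2 animals farthest from the median of the member, or of the mean, these were 0.824, 0.722, 0.761 and 0.891 in that order. The lowest such value among the genes named was 0.612, for Ccl2 with Itgb2.

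The rest of the pathway also held 0 genes past the threshold. Of 13 measured other CC chemokines, 7 had a higher and 6 a lower mean in exposed skin, with a median difference of 0.06. Ccl24, an eosinophil attractant, averaged 3.33 ± 0.26 in exposed (SD, n = 6) against 3.50 ± 0.31 in sham animals (SD, n = 8), and Ccl6 differed by -0.23. Of 9 other CXC, CX3C and XC chemokines, 2 had a higher and 7 a lower mean (median -0.15), with the platelet chemokine Pf4 at a difference of -0.31 and the lymphocyte chemokine Xcl1 at -0.38, the latter exceeding background in 3 exposed and 7 sham animals. Cxcr2, the neutrophil receptor for Cxcl1 and Cxcl2, differed by -0.09, and Ccr2, the monocyte receptor for Ccl2 and Ccl7, by 0.43 ± 0.43 (SE), exceeding background in 5 exposed and 7 sham animals. Ccr1, a receptor for Ccl3 and Ccl5, differed by -0.30, with 5 exposed and 8 sham animals above background. Of 14 measured chemokine receptors, 4 had a higher and 10 a lower mean (median -0.08); the members with the smallest p were Cxcr6 at 0.22 and Cxcr3 at -0.28, the latter above background in 4 exposed and 6 sham animals.

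Among 19 other cytokines, 6 had a higher and 13 a lower mean in exposed skin (median -0.07). Csf3, the neutrophil growth factor G-CSF, averaged -2.29 ± 0.087 in exposed (SD, n = 6) against -1.98 ± 0.35 in sham animals (SD, n = 8), differing by -0.31 (limma adjusted p = 0.9996), and Il24 differed by -0.47, above background in 4 exposed and 8 sham animals. Il1a, which shares its receptor with Il1b, differed by 0.01 and the receptor antagonist Il1rn by -0.10. Of 10 receptor genes of the IL-1, IL-6 and TNF families, 3 had a higher and 7 a lower mean (median -0.06), with the IL-18 receptor Il18r1, above background in 4 exposed and 7 sham animals, at -0.31 (limma adjusted p = 0.9996) and the decoy receptor Il1r2 at -0.16. The TNF receptors differed by -0.07 (Tnfrsf1a) and 0.06 (Tnfrsf1b).

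In the NF-kappaB list 8 genes had a higher and 14 a lower mean (median -0.03). The kinase Ikbkb, which marks the inhibitor for destruction, averaged 0.08 ± 0.064 in exposed (SD, n = 6) against 0.25 ± 0.089 in sham animals (SD, n = 8), differing by -0.17 ± 0.059 (SE; limma adjusted p = 0.9996), and the coactivator Bcl3 differed by -0.16. The inhibitor Nfkbia differed by -0.01, the subunit Rela by -0.02 and the mRNA-destabilising feedback gene Zfp36 by 0.09. Of 17 induced effectors, 5 had a higher and 12 a lower mean (median -0.07). Complement C3 differed by -0.53 ± 0.24 (SE; limma adjusted p = 0.9996), the stromelysin Mmp3 by -0.37, the endothelial selectin Sele by 0.41 and the alarmin S100a8 by 0.05. Prostaglandin synthase Ptgs2 and the selectin Selp were not well above background on enough arrays.

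Cell type markers differed as follows, again with 0 past the threshold. Of 7 neutrophil markers 1 had a higher mean (median -0.04; Fpr1 -0.17, Cxcr2 -0.09), of 15 macrophage and dendritic cell markers 1 (median -0.08; Cd68 -0.23, Csf1r -0.29) and of 17 T cell and natural killer cell markers 4 (median -0.05; Prf1 -0.48, Cd4 -0.39). Mast cell markers were split 5 to 5 (median -0.07; Cma1 -0.34, Fcer1a 0.58). All 7 measured keratinocyte markers had a lower mean (median -0.08; Itgb4 -0.22, Krt1 -0.14), as did 8 of 9 fibroblast markers (median -0.11; Mfap5 -0.22, Dcn -0.18) and 6 of 9 endothelial markers (median -0.05; Flt1 -0.26, Cdh5 -0.20). Skeletal muscle markers (11 of 11 measured with a higher mean, median 1.36; Myh1 3.20, Tnnc2 1.85), hair follicle keratins (11 of 11, median 0.58; Krt73 1.05, Krt35 1.33) and adipocyte markers (6 of 7, median 0.19; Lpl 0.19, Pparg 0.09) made up the rest. Myh1, a fast muscle myosin, had an SD of 3.21 among exposed (n = 6) and 4.54 among sham animals (n = 8), and exceeded background in 6 exposed and 5 sham animals, so its difference rests partly on values at background. Krt35 and Cd4 were each above background in 6 exposed and 7 sham animals. The summed muscle level ran from 2.49 to 171.5 in exposed and from 1.71 to 72.6 in sham skin, and its correlation with the members ran from -0.388 (Ccl7) to 0.296 (Il1b). The part of muscle, hair and fat content in the members' differences was not tested.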

How the data were processed

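Total RNA of 14 skin biopsies was labelled with Cy3, per the labels' protocols. Per the file headers, Agilent Feature Extraction 10.7.3.1 produced the deposited intensity of each spot, with background subtracted and arrays not scaled to each other, and marked saturated and outlying spots. A table deposited by the authors gives log2 values for 15168 probes, centred on each probe's median, with column medians from -0.0086 to 0.012. After the same centring its columns correlated at 0.9999 to 1 with quantile-normalized signals, which settled scale and direction; how the authors normalized it is not stated in these sources.

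Here the processed signal was taken as log2 minus the 75th percentile of each array, without 4259 control spots and outlier-flagged spots, and spots of a probe were averaged. Probes well above background (by at least as many of their spots as not) on at least 6 arrays were kept (21012 of 30367), and a gene was its brightest kept probe. No member spot was saturated. Symbols came from RefSeq (GRCr8; 59.3% of probes matched). The comparison of groups used limma 3.58.1 under R 4.3.3 (two-sided, Benjamini-Hochberg over 18609 genes); relations between animals by permutation in Python 3.11.15. On simulated data for this comparison over 18609 genes, 62% of 50 genes changed 1.5-fold were called and 88% of 50 changed 2-fold. Those genes were drawn at random from all genes, with independent noise and no slide effect. All 8 members varied more than the median gene (SD 0.32 to 0.88 against 0.24), so these rates do not apply to the members. Members, lists and the naming rule were chosen with earlier results of these data known: all members, the 2 genes of smallest p in each list and the nearest genes by correlation were named, and other list genes were chosen after their values were seen. Alternatives covered background, normalization, filters, probe choice, flagged spots, the authors' values, slide, the variance model and single arrays. The number of arrays limits the precision.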

Additional observations from a re-analysis of the deposited data

Results flagged for a closer look

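Exposed animal 1 stood apart from the other exposed animals in Ccl3, at -2.38 where the next highest was -3.12, a gap of 0.664 of the group's range. With 16 groups of values looked at (8 genes in each of the groups), chance alone marks about 1 in 20. Without this animal the Ccl3 difference was -0.73.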

How the results depend on the processing

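Counts of genes and of members past the adjusted limma threshold were 0 in each of the 25 alternatives run, with 295 (within slide 4) to 1549 (without sham animal 6) genes at an unadjusted p under 0.05. Of 198 member differences under these alternatives, 190 kept their sign and side of the threshold. The signs that turned were Ccl2 (-0.0968), Ccl5 (0.359) and Tnf (-0.434) within slide 3, Ccl5 (0.00136) with slide as a block and Il1b (0.103) within slide 4. With single arrays left out, Il1b ran from -0.138 to 0.0312 and Tnf from -0.0243 to 0.288; the cause was not tested. The number of correlated pairs was 2 of 28, from permutation p-values that are too small for values tied by removing group means. With slide means also removed it was 7, where the values are tied further. Within slide 3 it was 0 (6 arrays, 720 orderings, smallest adjusted permutation p = 0.117). With single arrays left out it was 2 to 6 (5 without sham animal 1, 6 without exposed animal 3). It was 1 of 21 when each probe had to exceed background on every array and 1 of 21 in the authors' values, since Cxcl2 is not among the genes tested there, and 3 with normexp. With any 1 of the 14 arrays left out, both Cxcl1 with Cxcl2 and Ccl2 with Ccl7 passed. No paired analysis was possible because animal numbers, given in accession order, only name the animals. Signal over background limits Cxcl2, Ccl4 and Il6.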
